A study of Mus musculus with 24 samples.

Results

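The livers of 8 mice treated with IUB288 and collected 22 h after the final injection were compared with the livers of 8 vehicle-treated mice collected at the same interval. These 16 libraries, chosen by their treatment and time labels, belong to a series of 24. The other 8 come from mice given IUB288 and collected 4 h after the final injection, and they are used below only to place the 22 h values. All animals were diet-induced obese (DIO) mice, dosed for 4 days, and RNA was taken from frozen whole liver. IUB288 is known here only by its code name and is described by the series as an agonist of the glucagon receptor. No vehicle group collected at 4 h is used here. Strain, sex, age, dose and clock time of collection are not given in the sources used here.

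Glucagon is released in fasting and acts mainly on hepatocytes, through a receptor that couples to adenylyl cyclase. The rise in cyclic AMP activates protein kinase A, which phosphorylates CREB and other factors and favours glucose output, uptake and breakdown of amino acids, and fat oxidation over fat synthesis. Transcripts induced directly by cyclic AMP, such as Crem and Sik1, are known for brief responses that feed back on the pathway.

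Each library held counts for 22355 genes, with totals of 13985780 counts (vehicle replicate 7) to 44070917 counts (vehicle replicate 1) in these 16 livers and 14093 to 17371 genes with at least 1 count. Levels are given in CPM, counts scaled to a library of 1000000. Vehicle replicate 1 stood apart from the other livers. Ucp1, which lets brown fat mitochondria produce heat, measured 1390 CPM in it, against at most 0.576 CPM in any of the other 23 libraries. The 14 fat cell markers in the data, of which 10 were tested, summed to 3739.6 to 8988 CPM in vehicle livers (median 5667). At 22 h the sum was 2189 to 5138 CPM (median 3098), and the highest vehicle value without replicate 1 was 6291. The list includes genes described below for liver, such as Cidec and Pparg, so its sum is not a measure of fat cell RNA alone. Its members Fabp4 and Cfd had vehicle medians of 35.2 and 3.19 CPM. The comparison was also fitted without vehicle replicate 1, and the effect of leaving it out is given for part of the results below. Where its Ucp1 RNA came from was not tested. Among treated livers, replicates 6 and 7 lay farthest from vehicle on the first principal component, which held 38% of the variance. Markers of hepatocytes summed to 92856 to 145482 CPM in vehicle livers (median 130821) and 91501 to 124121 CPM at 22 h (median 105575), so hepatocyte RNA was abundant in every library.

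Treated and vehicle livers differed widely at 22 h. Of 11508 genes tested, 4237 differed from vehicle (36.8% called), 2023 of them higher (17.6%) and 2214 lower (19.2%). These calls use limma-voom with Benjamini-Hochberg adjustment over all tested genes at 0.05, as do all adjusted p-values below. Most differences were small: 2128 called genes changed by less than 1.5-fold, 965 by more than 2-fold and 168 by more than 4-fold. In 853 genes (7.41%) the 8 treated and 8 vehicle livers did not overlap, 483 of them higher (4.20%) and 370 lower (3.22%). The median log2 fold change over all tested genes was -0.02. Without vehicle replicate 1, 2070 genes were higher (17.8%) and 2185 lower (18.8%), and 1833 of the higher and 1995 of the lower genes were shared with the full comparison. The labels number the animals, and within numbers 1 to 12 (4 livers against 4) 649 genes were higher and 580 lower, against 1541 and 1699 within numbers 13 to 24. No gene called in both the full and a within-half comparison changed direction. A CPM value is scaled for library size but not for transcript length, so levels are compared between livers and not between genes.

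**Figure D1:**
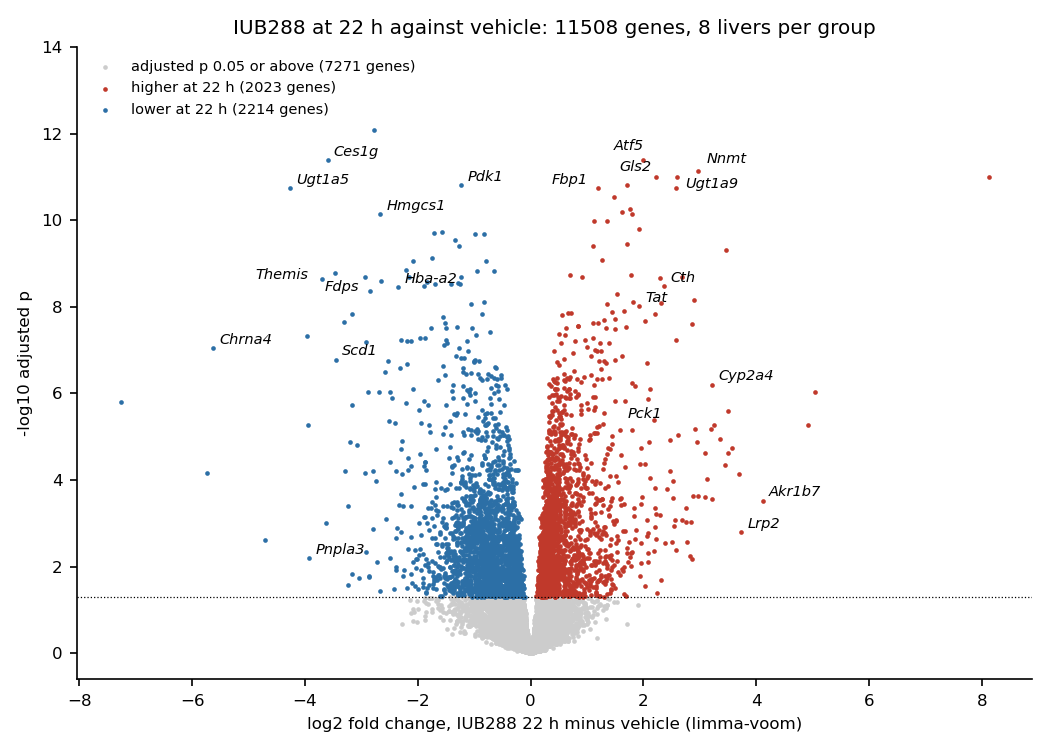
Each point is 1 of 11508 genes, with the log2 fold change of 22 h over vehicle on the x axis and the negative log10 of the adjusted p on the y axis. Nnmt, Gls2 and Atf5 are among the highest points on the side of genes that rose, and Ces1g and Pdk1 on the side of genes that fell.

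The 15 largest rises among named genes with a mean of at least 5 CPM included several metabolic enzymes. Nnmt, which methylates nicotinamide using S-adenosylmethionine, measured 22.7 to 57.3 CPM in vehicle livers (median 48.7) and 224 to 497 CPM at 22 h (median 341). No treated liver overlapped a vehicle liver, and the rise was 7.82-fold (log2 fold change 2.97 ± 0.17 (SE), adjusted p = 7.25e-12). Acmsd, which diverts tryptophan breakdown away from NAD synthesis, measured 8.48 to 15.8 CPM in vehicle livers (median 9.54) and 50.8 to 144 CPM at 22 h (median 78.8). Its groups were separate too, at 7.41-fold (log2 fold change 2.89 ± 0.26 (SE), adjusted p = 7.05e-09). Cyp17a1, a steroid 17-alpha-hydroxylase, rose 7.27-fold, at 21 to 95.9 CPM in vehicle livers (median 46) and 188 to 569 CPM at 22 h (median 345). Gls2, the liver glutaminase that releases ammonia from glutamine, rose 4.68-fold, at 114 to 224 CPM in vehicle livers (median 173) and 632 to 1008 CPM at 22 h (median 811).

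Cyp2a4, a steroid-hydroxylating cytochrome P450, measured 21.1 to 42.9 CPM in vehicle livers (median 33.3) and 63 to 1101 CPM at 22 h (median 288). Every treated liver was above every vehicle liver, but treated livers spread widely (log2 fold change 3.22 ± 0.39 (SE), adjusted p = 6.26e-07). Its near-identical relative Cyp2a5 measured 247 to 736 CPM in vehicle livers (median 382) and 914 to 1752 CPM at 22 h (median 1250.1) (log2 fold change 1.63 ± 0.18 (SE), adjusted p = 1.37e-07), and counts may be divided between the pair. Akr1b7, an aldo-keto reductase, rose 17.4-fold and Lrp2, the endocytic receptor megalin, 13.3-fold, both from medians under 1 CPM. Gucy2c, a guanylate cyclase receptor best known in intestine, rose 10.9-fold, and Nptx1, a pentraxin, 10.3-fold. The remaining rises in the top 15 were Ugt1a9 (6.03-fold), the gap junction gene Gjc3 (5.98-fold), Serpina1e (5.92-fold), Cth (5.13-fold), Agxt (4.95-fold) and Trib3 (4.68-fold). Serpina1e belongs to a family of near-identical alpha-1-antitrypsin genes and was the only gene of these 15 whose groups overlapped. Ugt1a9 shares its last exons with the other Ugt1a genes, so its value depends on how shared reads were counted.

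Ren1, which encodes renin, was singled out after its values were seen. It had 0 counts in all 8 vehicle livers and 77 to 223 counts in each treated liver at 22 h. Pooled over the group, its 22 h level of 4.78 CPM was 405-fold above the limit that 3 counts over the vehicle group allow (0.0118 CPM). That ratio pools reads and holds no spread between mice. The fit gave 278-fold (log2 fold change 8.12 ± 0.49 (SE), adjusted p = 1.01e-11), a size that depends on the offset of 0.5 added to counts of 0. Ren1 lies at chr1:133350674-133360320 (GRCm38.p6). The 8 livers collected earlier held 2.17 to 4.07 CPM at 4 h (median 3.06).

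Among the largest falls were genes of fat synthesis and storage, detoxification and membrane transport. Scd1, the stearoyl-CoA desaturase that makes monounsaturated fatty acids, measured 14313 to 47220.2 CPM in vehicle livers (median 33845) and 1187 to 5696 CPM at 22 h (median 3223). All treated livers lay below all vehicle livers, at 10.9-fold lower (log2 fold change -3.45 ± 0.38 (SE), adjusted p = 1.65e-07). Ces1g, a carboxylesterase that acts on neutral lipids, measured 263 to 497 CPM in vehicle livers (median 379.8) and 16.8 to 61 CPM at 22 h (median 28.1). This gene was 12.1-fold lower with a narrow spread in both groups (log2 fold change -3.60 ± 0.20 (SE), adjusted p = 4.12e-12). Chrna4, a nicotinic acetylcholine receptor subunit, measured 6.85 to 18.9 CPM in vehicle livers (median 13.6) and 0.0592 to 0.55 CPM at 22 h (median 0.224). The groups were separate and the fall was 49.6-fold (log2 fold change -5.63 ± 0.59 (SE), adjusted p = 9.12e-08). Ugt1a5 fell 19.2-fold, at 43.4 to 76.7 CPM in vehicle livers (median 58.5) and 2.29 to 5.67 CPM at 22 h (median 2.81), in the opposite direction to Ugt1a9 with which it shares exons.

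Themis, known for its role in developing T cells, measured 55.4 to 96.4 CPM in vehicle livers (median 81.6) and 3.02 to 18.4 CPM at 22 h (median 6.16). It fell 13-fold (log2 fold change -3.70 ± 0.31 (SE), adjusted p = 2.26e-09). The 25 T, NK and B cell markers in the data, of which 22 were tested, summed to 23.3 to 101 CPM in vehicle livers (median 31.3). At 22 h they summed to 13.2 to 41.4 CPM (median 20.7). The highest vehicle sum is that of replicate 1, and the next was 38.7 CPM. The part of T cells in the fall of Themis was not tested. Aqp8, a water channel, fell 7.66-fold and Orm3, an orosomucoid with close copies, 11-fold. Thrsp, a regulator of fat synthesis, fell 8.95-fold. Gngt1 and Cib3 fell 9.94-fold and 8.41-fold, and in each the groups did not overlap.

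Vehicle replicate 1 touched several of the largest falls. Pnpla3, a lipid droplet lipase, measured 2.22 to 142 CPM in vehicle livers (median 15.1) and 0.357 to 1.99 CPM at 22 h (median 0.751), and its highest vehicle value without replicate 1 was 29.3. The fall was 15.2-fold with that liver and 9.65-fold without it (log2 fold change -3.27, adjusted p = 0.00052). Cfd, the complement protease adipsin made by fat cells, fell 12.3-fold with it and 8.58-fold without it. Tmem45b fell 8.25-fold with it and 4.68-fold without it, and its log2 fold change was -2.44 without 22 h replicate 6 against -3.04 with all livers. The other 2 of the 15 were uneven between livers: Sdc3 measured 0.448 to 20.4 CPM in vehicle livers (median 2.15) and 0 to 1.92 CPM at 22 h (median 0.485) and fell by 2.50 on the log2 scale without 22 h replicate 1 against -3.17 with it, and H2-Q1 measured 0.992 to 34 CPM in vehicle livers (median 1.93) and 0.12 to 0.965 CPM at 22 h (median 0.471).

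**Figure D2:**
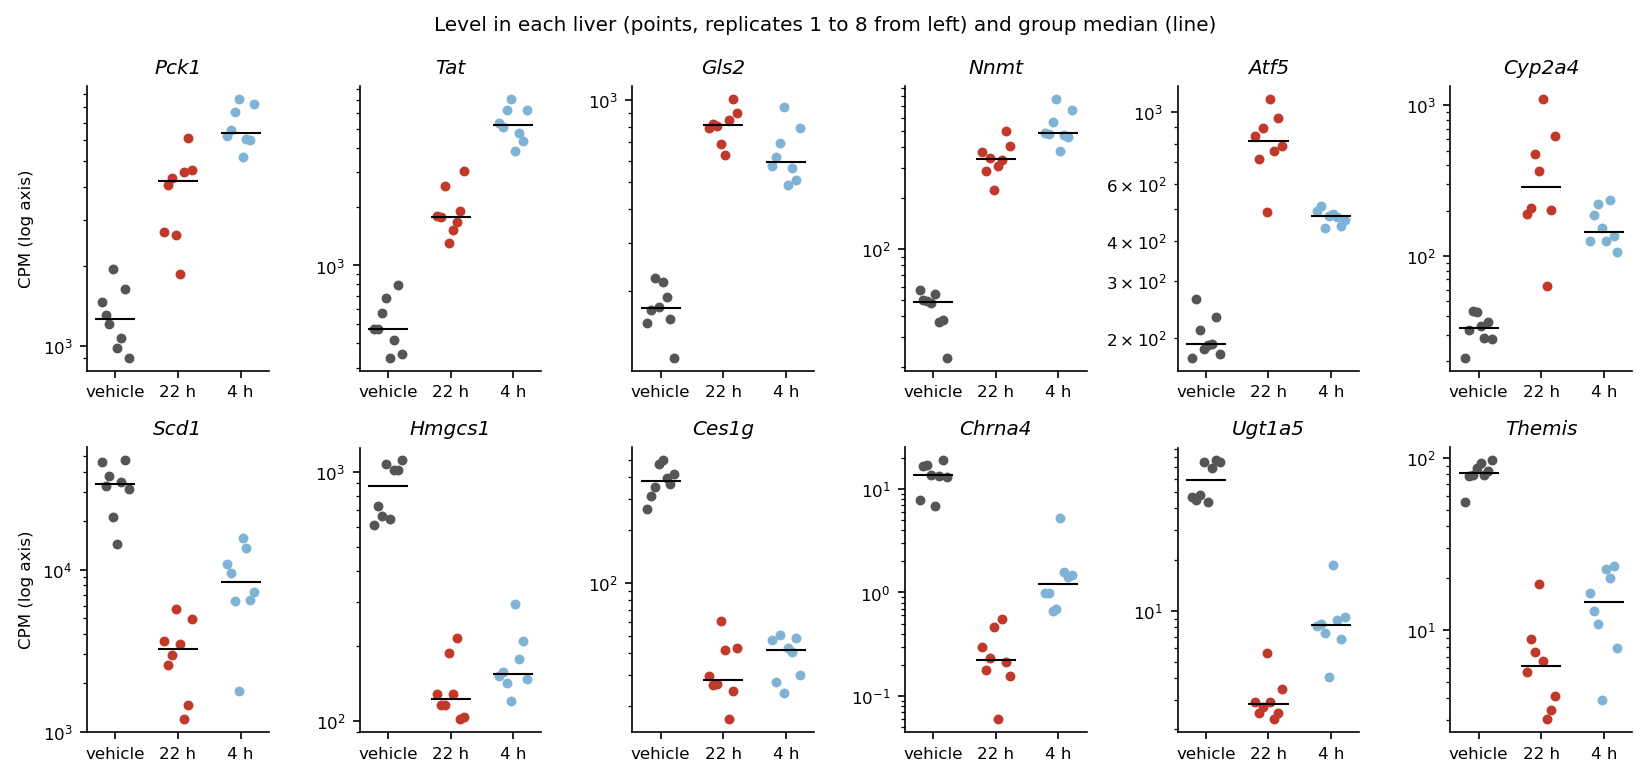
Levels of 12 genes in CPM on log axes, with 1 point per liver for vehicle, 22 h and 4 h and a line at each group's median. In 11 of the 12 genes the 22 h and vehicle points are fully separate, and in Pck1 the lowest treated liver lies below the highest vehicle liver.

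Genes of the first steps of glucagon signalling differed by small amounts at 22 h. Of 21 tested genes for the receptor, G proteins, adenylyl cyclases and protein kinase A, 3 were higher (14.3%) and 7 lower (33.3%), against 17.6% and 19.2% over all genes (median log2 fold change -0.17). Gcgr, the glucagon receptor, measured 86.3 to 132 CPM in vehicle livers (median 119.9) and 109 to 179.5 CPM at 22 h (median 126). The groups overlapped and the difference did not pass the test (log2 fold change 0.18 ± 0.09 (SE), adjusted p = 0.145). Gnas, the stimulatory G protein, showed a log2 fold change of -0.34 ± 0.15 with adjusted p = 0.075, and -0.16 with adjusted p = 0.0257 without vehicle replicate 1. Adcy6, an adenylyl cyclase, fell 1.37-fold with separate groups, while Adcy9 had a log2 fold change of -0.01 ± 0.09 (adjusted p = 0.954).

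Cyclic AMP phosphodiesterases, which break the messenger down, included 3 higher and 3 lower of 12 tested (25% each), shares near those over all genes (17.6% and 19.2%). Pde4b measured 13.8 to 52.9 CPM in vehicle livers (median 19.5) and 28.7 to 52.3 CPM at 22 h (median 36.5). It rose 1.67-fold. Vehicle replicate 1, at 52.9 CPM, lay above every treated liver, and the other 7 vehicle livers lay below all of them. Pde4c rose 1.8-fold, at 7.48 to 12.4 CPM in vehicle livers (median 11.1) and 13 to 28.4 CPM at 22 h (median 19), with no overlap. Pde4d fell 1.32-fold, at 28.9 to 47.7 CPM in vehicle livers (median 33) and 16.3 to 36.9 CPM at 22 h (median 27.5). Pde10a had a log2 fold change of 0.59 ± 0.31 and Pde3b of 0.18 ± 0.07, with adjusted p-values of 0.133 and 0.0507. Pde3b passed without vehicle replicate 1 (adjusted p = 0.0289) or 7 (0.0212) or 22 h replicate 5 (0.0269).

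Of 24 early CREB targets and feedback genes tested, 7 were higher (29.2%) and 4 lower (16.7%), against 17.6% and 19.2% over all genes. Without vehicle replicate 1 these counts were 10 and 3. Crem, whose short form represses cyclic AMP response elements, measured 19.6 to 26 CPM in vehicle livers (median 23) and 20.9 to 30.4 CPM at 22 h (median 27.3). Its rise of 1.2-fold was close to the threshold (log2 fold change 0.27 ± 0.10 (SE), adjusted p = 0.0371) and missed it (adjusted p 0.0502 to 0.0811) without any 1 of vehicle replicates 4, 5 and 6 or 22 h replicates 1, 2, 3, 6 and 7. Sik1, the kinase that restrains CREB coactivators, rose 1.37-fold, at 17.1 to 37.2 CPM in vehicle livers (median 28.8) and 27.5 to 47.6 CPM at 22 h (median 40.5). Nr4a1, an orphan nuclear receptor, had a log2 fold change of 0.57 ± 0.32 (adjusted p = 0.177), which became 0.81 (adjusted p = 0.0471) without vehicle replicate 1. Egr1, an immediate early factor, rose 2.07-fold, at 12.7 to 34 CPM in vehicle livers (median 18.8) and 19.4 to 77.2 CPM at 22 h (median 41.2), with overlapping groups. Per1, a clock gene with a cyclic AMP response element, had a log2 fold change of -0.46 ± 0.25 (adjusted p = 0.146). Rgs16, which shortens G protein signals, fell 1.8-fold, at 140.2 to 354 CPM in vehicle livers (median 235) and 66.6 to 209 CPM at 22 h (median 139).

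Among gluconeogenic genes, the reaction steps differed. Of 18 tested, 8 were higher and 1 lower, a share of 44.4% higher against 17.6% over all genes. Pck1, the phosphoenolpyruvate carboxykinase, lies at chr2:173153073-173159274 and measured 899.9 to 1962 CPM in vehicle livers (median 1259.7) and 1870 to 6122 CPM at 22 h (median 4195). Every treated liver lay above the vehicle mean and 1 fell within the vehicle range (log2 fold change 1.5 ± 0.19 (SE), adjusted p = 1.5e-06). Fbp1, fructose bisphosphatase, rose 2.28-fold, at 743 to 1043 CPM in vehicle livers (median 984) and 2002 to 2576 CPM at 22 h (median 2147), with separate groups. Got1, the cytosolic aspartate aminotransferase, rose 4.6-fold, at 88.1 to 190 CPM in vehicle livers (median 134) and 361 to 1056 CPM at 22 h (median 595). By contrast, G6pc, the glucose-6-phosphatase that frees glucose, measured 79.6 to 391 CPM in vehicle livers (median 279) and 127 to 635 CPM at 22 h (median 381). The groups overlapped broadly and the difference did not pass (log2 fold change 0.41 ± 0.30 (SE), adjusted p = 0.297). Ppargc1a, a coactivator of this program, had a log2 fold change of 0.04 ± 0.15 (adjusted p = 0.856). Pcx, pyruvate carboxylase, was the member that fell, 1.58-fold, at 528 to 719 CPM in vehicle livers (median 666) and 382 to 459 CPM at 22 h (median 418), with no overlap.

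The 180 bases before the Pck1 start are shown because this promoter is a textbook target of cyclic AMP. The sequence runs on the plus strand of chr2:173152893-173153072 (RefSeq, GRCm38.p6), and the capitals mark the single match to the 5 letters TGACG, the core of the cAMP response element, here on the opposite strand.
Pck1: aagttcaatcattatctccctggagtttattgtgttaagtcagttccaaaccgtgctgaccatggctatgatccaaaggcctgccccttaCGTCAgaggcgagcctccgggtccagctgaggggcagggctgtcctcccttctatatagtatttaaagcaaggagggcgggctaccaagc
Promoter windows, from 250 bases before to 50 bases after the start, were found for 7930 of the 11508 tested genes. The core TGACG, searched on both strands and counted also where it lies within the full element TGACGTCA, was in 31.1% of these windows and the full element in 2.89%. Among 18 windows of the CREB target list, 14 held the core (77.8%) and 2 the full element (11.1%). Of these 14 genes, 3 were higher and 2 lower at 22 h. In the other lists searched, the core was in 21.2% (amino acid breakdown) to 56.2% (cholesterol synthesis) of windows. Among genes higher at 22 h, 32.8% held the core, and among genes lower, 28.3%. A match describes letters and is not a measured binding site.

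Genes of glycolysis and pyruvate use were more often lower than higher. Of 27 genes tested, 15 were lower (55.6%, against 19.2% over all genes) and 3 higher (11.1%, against 17.6%). Their median log2 fold change was -0.42. Pdk1, a kinase that turns off pyruvate dehydrogenase, fell 2.35-fold, at 146 to 205 CPM in vehicle livers (median 178) and 63.2 to 90 CPM at 22 h (median 77.5), and Aldoc, an aldolase, fell 3.65-fold. Pdk4, another such kinase, had a log2 fold change of -1.24 ± 0.54 (adjusted p = 0.0731) with vehicle replicate 1 at 503 CPM against at most 45.4 in other vehicle livers, and it passed without vehicle replicate 4 (adjusted p = 0.0439) or 5 (0.0344). Without vehicle replicate 1 its log2 fold change was -0.65 (adjusted p = 0.0927). Pklr, liver pyruvate kinase, fell 1.35-fold, a call lost without 22 h replicate 1 (adjusted p = 0.0523) or 8 (0.0537). Ugp2, which makes UDP-glucose for glycogen, rose 1.42-fold.

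Enzymes of amino acid breakdown were higher or not called. Of 39 tested genes, 22 were higher and 0 lower (56.4% and 0%, against 17.6% and 19.2% over all genes). Their median log2 fold change was 0.32. Tat, tyrosine aminotransferase, measured 336 to 798 CPM in vehicle livers (median 473) and 1299.5 to 3060.3 CPM at 22 h (median 1779). The groups were separate at 3.8-fold (log2 fold change 1.92 ± 0.18 (SE), adjusted p = 9.85e-09). Hgd, a later enzyme of tyrosine breakdown, rose 2.56-fold without overlap. Hal, histidine ammonia lyase, rose 2.71-fold, at 112 to 347 CPM in vehicle livers (median 184) and 367 to 769.5 CPM at 22 h (median 518), and Sds, serine dehydratase, 2.65-fold, at 37.8 to 119 CPM in vehicle livers (median 74.6) and 125 to 359.9 CPM at 22 h (median 179). Agxt, which transfers amino groups from alanine to glyoxylate, measured 51.1 to 116 CPM in vehicle livers (median 79.2) and 304 to 503 CPM at 22 h (median 382).

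The urea cycle, which clears the nitrogen so released, moved the same way: 7 of 12 tested genes were higher and 1 lower. These shares were 58.3% and 8.33%, against 17.6% and 19.2% over all genes. Cps1, the entry step of the cycle, measured 948 to 1864 CPM in vehicle livers (median 1507) and 2739 to 4481 CPM at 22 h (median 3143). Ass1, argininosuccinate synthetase, rose 3.49-fold, at 528 to 989 CPM in vehicle livers (median 791) and 2169.9 to 3623 CPM at 22 h (median 2600.4). Gm5424, a gene model resembling Ass1, rose 3.4-fold, and reads may be shared between them. Asl rose 2.27-fold, Arg1 1.7-fold and the ornithine carrier Slc25a15 1.73-fold, and in none of these cycle genes did the groups overlap. The 1 member that fell was Glul, glutamine synthetase of the pericentral hepatocytes, 1.74-fold, at 2234 to 3557 CPM in vehicle livers (median 2704) and 1062 to 1959.6 CPM at 22 h (median 1709.7).

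Of 18 plasma membrane amino acid transporters, 6 were higher (33.3%, against 17.6% over all genes) and 2 lower (11.1%). Slc7a2, a cationic amino acid carrier, measured 540.4 to 1021 CPM in vehicle livers (median 836) and 1684 to 3823 CPM at 22 h (median 2768) (log2 fold change 1.81 ± 0.16 (SE), adjusted p = 7.93e-09). Slc3a1, the heavy chain of the dibasic carrier, rose 2.8-fold, and Slc3a2, the CD98 heavy chain, 1.34-fold with overlapping groups. Methionine and one-carbon genes included 13 higher (41.9%) and 4 lower (12.9%) of 31. Mat1a, which makes S-adenosylmethionine, rose 2.32-fold, at 2745 to 3779.9 CPM in vehicle livers (median 3366) and 6019 to 9358 CPM at 22 h (median 7961). Gnmt, which consumes it, rose 3.45-fold, at 343 to 566 CPM in vehicle livers (median 429.6) and 1234 to 2191 CPM at 22 h (median 1530.1). Cbs and Cth, which carry homocysteine to cysteine, rose 3.28-fold and 5.13-fold, Cth from 163 to 279 CPM in vehicle livers (median 198) and 594 to 1549 CPM at 22 h (median 1038).

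Most of the cholesterol synthesis genes that could be tested fell. The list names 29 genes, and 23 of them were in the data and tested. Of these 23, 20 were lower (87%, against 19.2% over all genes) and 0 higher. Their median log2 fold change was -1.28, against -0.02 over all genes. Hmgcs1, which makes the precursor of mevalonate, measured 609 to 1112 CPM in vehicle livers (median 874) and 101 to 214 CPM at 22 h (median 122). No treated liver reached the vehicle range, at 6.36-fold lower (log2 fold change -2.67 ± 0.18 (SE), adjusted p = 7.22e-11). Farther along the path, Fdps fell 7.16-fold, at 142 to 331 CPM in vehicle livers (median 238) and 21.5 to 63.8 CPM at 22 h (median 26.6), Sqle 4.57-fold and Nsdhl 6.27-fold. Acat2, the first cytosolic step, fell 2.42-fold.

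Promoter stretches of 2 members are shown because the list fell together. Capitals mark CCAAT boxes (letters CCAAT, here read as ATTGG on the opposite strand) in both and, in Hmgcs1, the sterol element TCACNCCAC. Hmgcs1 runs on the plus strand of chr13:119690171-119690350 and Nsdhl on the plus strand of chrX:72918341-72918520 (RefSeq, GRCm38.p6).
Hmgcs1: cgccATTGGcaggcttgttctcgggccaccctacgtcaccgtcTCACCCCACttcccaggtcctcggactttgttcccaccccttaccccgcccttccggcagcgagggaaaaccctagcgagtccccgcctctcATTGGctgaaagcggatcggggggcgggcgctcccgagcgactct
Nsdhl: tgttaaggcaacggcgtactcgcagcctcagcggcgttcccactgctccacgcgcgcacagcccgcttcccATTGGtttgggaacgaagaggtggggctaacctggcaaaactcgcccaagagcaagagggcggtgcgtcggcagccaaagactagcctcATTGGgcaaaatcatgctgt
Of 16 members with a window, 14 held a CCAAT box (87.5%, against 42.3% of windows of all tested genes), and 12 of these 14 genes were lower. In the whole list 20 of 23 were lower, so that count does not set members with the box apart. Over all genes the box was in 42.6% of windows of genes higher at 22 h and 42.5% of those lower. Other gene lists held the box often too, at 75% of clock, 61.5% of integrated stress response and 55.6% of CREB target windows. The sterol element was in 1 of the 16 (6.25%) against 1.49% of all windows. Both motifs and the amino acid motif used below were chosen after the values were seen, and were searched on both strands.

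Genes of fatty acid and glycerolipid synthesis fell with Scd1. Of 19 tested, 12 were lower (63.2%, against 19.2% over all genes) and 2 higher (10.5%, median log2 fold change -0.89). Acacb, the acetyl-CoA carboxylase that produces malonyl-CoA at mitochondria, measured 139 to 643 CPM in vehicle livers (median 308) and 58.1 to 104 CPM at 22 h (median 71.6) (log2 fold change -1.96 ± 0.20 (SE), adjusted p = 5.13e-08). Fasn, fatty acid synthase, measured 445 to 5104 CPM in vehicle livers (median 849) and 162 to 676 CPM at 22 h (median 256), and without vehicle replicate 1 the highest vehicle value was 1479. Its fall was 3.69-fold with that liver and 2.97-fold without it. Acaca fell 1.69-fold (1.48-fold without that liver). Gpam, the first acyltransferase of glycerolipid synthesis, fell 2.2-fold and Srebf1, the factor that drives these genes, 1.85-fold. Me1, which supplies NADPH for the pathway, fell 2.12-fold.

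Of 16 lipid droplet genes, 13 were lower (81.2%, against 19.2% over all genes) and 1 higher (6.25%). Cidec, a droplet fusion protein, measured 78.3 to 218 CPM in vehicle livers (median 141) and 23.2 to 47 CPM at 22 h (median 37.2) with separate groups (log2 fold change -1.98 ± 0.26 (SE), adjusted p = 2.49e-06). Plin2, the main coat protein of hepatocyte droplets, fell 1.29-fold, and Ces1d, a lipase related to Ces1g, 2.8-fold. Of 41 fatty acid oxidation genes, 17 were lower (41.5%, against 19.2% over all genes) and 6 higher (14.6%). Ppara, the receptor that drives the program, fell 1.32-fold. Cpt1a, the gate of mitochondrial entry, had a log2 fold change of -0.14 ± 0.07 (adjusted p = 0.137), and -0.19 (adjusted p = 0.0334) without vehicle replicate 1.

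Of 26 lipoprotein and sterol export genes, 6 were higher (23.1%, against 17.6% over all genes) and 9 lower (34.6%, against 19.2%). Apoa1, the main protein of high-density lipoprotein, measured 3449 to 5059 CPM in vehicle livers (median 4588) and 1429 to 3211 CPM at 22 h (median 1538) (log2 fold change -1.30 ± 0.13 (SE), adjusted p = 2.98e-08), and Pltp, which transfers phospholipids, fell 3.72-fold. Abcg5, which exports sterol into bile, rose 2.48-fold, at 58.5 to 92.3 CPM in vehicle livers (median 70.9) and 127 to 229 CPM at 22 h (median 178). In bile acid synthesis 3 of 14 genes were higher (21.4%, near the 17.6% over all genes) and 1 lower (7.14%, against 19.2%). Cyp7a1, the rate-limiting enzyme, measured 142 to 537 CPM in vehicle livers (median 240.2) and 152 to 567 CPM at 22 h (median 394) with no call (log2 fold change 0.27 ± 0.33 (SE), adjusted p = 0.554), and Cyp8b1 was not called either (adjusted p = 0.731). Cyp27a1, of the alternative route, fell 1.72-fold, and Cyp7b1, of the same route, rose 2.49-fold with wide spread, 61.5 to 409.5 CPM at 22 h (median 156).

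**Figure D3:**
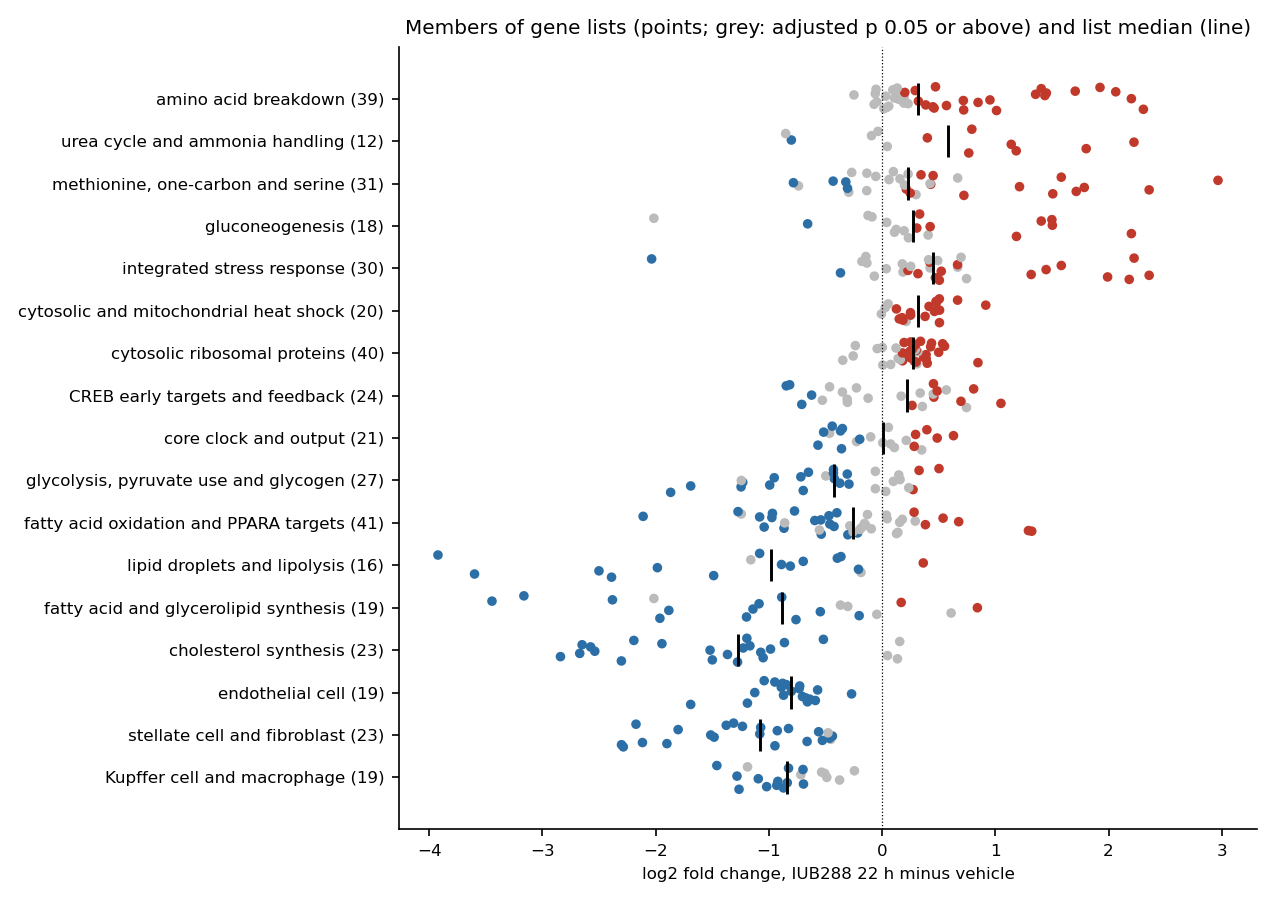
Log2 fold changes of the tested members of 17 gene lists (number tested in brackets), coloured red or blue where called and grey where not, with a line at each list's median. Amino acid breakdown has no blue point, and endothelial markers have 19 blue points and no other.

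Genes of the integrated stress response, many of them targets of the factor ATF4, were more often higher than lower. Of 30 tested, 14 were higher and 2 lower (46.7% and 6.67%, against 17.6% and 19.2% over all genes). Atf5, a factor of this response abundant in liver, measured 173 to 263 CPM in vehicle livers (median 190.1) and 492 to 1102 CPM at 22 h (median 815). The groups were separate at 3.98-fold (log2 fold change 1.99 ± 0.11 (SE), adjusted p = 4.12e-12). Atf4 itself rose 1.39-fold, and Gdf15, a hormone that reduces food intake, 2.73-fold, at 1.88 to 6.92 CPM in vehicle livers (median 3.39) and 5.16 to 12.7 CPM at 22 h (median 8.79). Trib3, a pseudokinase target of ATF4, measured 3.26 to 6.05 CPM in vehicle livers (median 3.9) and 7.72 to 48.9 CPM at 22 h (median 21.5). Asns, asparagine synthetase, measured 0.39 to 15 CPM in vehicle livers (median 0.542) and 2.38 to 11 CPM at 22 h (median 4.4), with vehicle replicate 1 the highest vehicle liver and 1.86 the next. Its log2 fold change was 2.18 ± 0.57 with that liver and 2.93 without it. Sars, a seryl-tRNA synthetase, rose 1.59-fold.

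The Asns promoter is shown because it holds the amino acid response element TGATGNAAN, marked in capitals. It runs on the minus strand of chr6:7693210-7693389 (RefSeq, GRCm38.p6).
Asns: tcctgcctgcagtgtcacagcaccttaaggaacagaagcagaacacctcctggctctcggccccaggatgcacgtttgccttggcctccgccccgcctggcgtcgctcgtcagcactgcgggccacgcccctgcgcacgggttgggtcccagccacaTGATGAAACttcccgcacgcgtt
Of 26 list members with a window, 7 held this element (26.9%, against 3.38% of windows of all tested genes). They were Asns, Trib3, Atf3, Slc7a11, Vldlr, Aars and Gars, the last 5 named because of the motif match. Of the 7, 4 were higher and 0 lower, and in the whole list 14 of 30 were higher. Over all genes the element was in 4.22% of windows of genes higher at 22 h and 3.83% of those lower.

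Of 20 cytosolic and mitochondrial heat shock genes, 16 were higher (80%, against 17.6% over all genes) and 0 lower, with a median log2 fold change of 0.32. Hspa9, the mitochondrial HSP70, measured 793 to 1001 CPM in vehicle livers (median 833) and 1361 to 2159 CPM at 22 h (median 1526) (log2 fold change 0.92 ± 0.08 (SE), adjusted p = 2.08e-09), and Hspd1, its partner chaperonin, rose 1.39-fold with separate groups. Hspa8, the cytosolic form, rose 1.33-fold. In the endoplasmic reticulum only 3 of 15 genes were higher (20%, near the background of 17.6%) and 0 lower, and Hspa5, its main chaperone, was not called (adjusted p = 0.187), while Xbp1 rose 1.26-fold. Of 40 cytosolic ribosomal protein genes, 27 were higher (67.5%) and 0 lower, with a median log2 fold change of 0.28. Rpl13a measured 167 to 216 CPM in vehicle livers (median 172) and 248 to 397 CPM at 22 h (median 331), and Rps6 rose 1.35-fold. Ribosomal protein genes have many processed copies, so their counts depend on how repeated matches were handled. Of 13 ribosome assembly genes, 9 were higher (69.2%), among them Gnl3 (1.42-fold), and 0 lower.

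Counts for mitochondrial lists depended on vehicle replicate 1. Of 20 biogenesis and tricarboxylic acid cycle genes, 5 were higher with that liver (25%) and 11 without it, and 2 were lower either way. Of 29 nuclear genes of oxidative phosphorylation, 7 were higher with it (24.1%) and 14 without it, and 1 was lower either way. Over all genes, 17.6% were higher with that liver and 17.8% without it. In that liver the first list summed to 7323 CPM, against at most 3109.6 CPM in the other vehicle livers.

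Of 35 drug-metabolizing cytochrome P450 genes of families 1 to 3, 8 were higher (22.9%, against 17.6% over all genes) and 16 lower (45.7%, against 19.2%). Cyp3a11, a major drug-oxidizing enzyme, measured 2693 to 4428 CPM in vehicle livers (median 3551) and 239 to 1322 CPM at 22 h (median 987) (log2 fold change -2.29 ± 0.35 (SE), adjusted p = 1.91e-05). Cyp2e1, the ethanol-oxidizing form, fell 1.68-fold, and Cyp1a2 was not called (log2 fold change 0.12 ± 0.12, adjusted p = 0.44). Of 22 conjugating enzymes, 7 were higher (31.8%) and 4 lower (18.2%, near the share over all genes). Sult1a1, a sulfotransferase, rose 3.24-fold, at 237 to 369.9 CPM in vehicle livers (median 279) and 700.1 to 1405 CPM at 22 h (median 881), and Gstp1, a glutathione transferase with a close copy, 4.1-fold. Ugt1a1, the bilirubin-conjugating member of its locus, fell 2.15-fold. Gclc, which begins glutathione synthesis, rose 1.56-fold.

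Several secreted proteins of the hepatocyte were examined gene by gene. Alb, serum albumin, measured 51949 to 84292 CPM in vehicle livers (median 69935) and 34806 to 55694 CPM at 22 h (median 45917). It fell 1.49-fold (log2 fold change -0.58 ± 0.11 (SE), adjusted p = 0.00037). The groups overlapped only through vehicle replicate 1, at 51949 CPM, and the other vehicle livers lay above all treated livers. Without that liver the log2 fold change was -0.63 (adjusted p = 7.81e-05). Ahsg, fetuin-A, an inhibitor of calcification and insulin signalling, rose 2.16-fold, at 2116 to 3512 CPM in vehicle livers (median 2876) and 4733 to 8571 CPM at 22 h (median 6404), and C3, the central complement protein, 1.85-fold, at 5291 to 9816 CPM in vehicle livers (median 7142) and 11611 to 17395 CPM at 22 h (median 12659). Hpx, which binds heme, rose 1.78-fold, while Cp, the copper carrier, fell 1.75-fold. Agt, the substrate of renin, rose 2.21-fold, at 305 to 479.6 CPM in vehicle livers (median 399.7) and 740.1 to 1245 CPM at 22 h (median 835). C8b, a terminal complement component, rose 2.84-fold. Of 30 acute phase genes, 10 were higher (33.3%) and 8 lower (26.7%), against 17.6% and 19.2% over all genes, with Hp 1.35-fold higher and Saa1 2.23-fold lower. Complement and coagulation genes included 12 higher (36.4%) and 6 lower (18.2%, near the share over all genes) of 33.

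Among growth and hormone genes, Igfbp1, an insulin-repressed binding protein, measured 5.85 to 31.5 CPM in vehicle livers (median 18.9) and 33.1 to 122 CPM at 22 h (median 63) with separate groups (log2 fold change 2.11 ± 0.37 (SE), adjusted p = 8.85e-05). Igfbp2 rose 2.23-fold, and Igf1 itself was not called (log2 fold change 0.22 ± 0.10, adjusted p = 0.0979). Fst, follistatin, a secreted activin antagonist induced by glucagon, measured 2.95 to 5.71 CPM in vehicle livers (median 4.57) and 8.45 to 33.3 CPM at 22 h (median 19) (log2 fold change 2.12 ± 0.26 (SE), adjusted p = 7.93e-07). Inhbe, an activin subunit, fell 1.87-fold. Socs2, a growth hormone target, fell 2-fold. The insulin receptor substrates rose, Irs1 1.78-fold and Irs2 1.86-fold.

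Zonation markers of the lobule differed by side. Of 18 periportal markers, 14 were higher (77.8%, against 17.6% over all genes) and 2 lower (11.1%, median 0.86). Of 22 pericentral and Wnt target markers, 11 were lower (50%, against 19.2%) and 4 higher (18.2%, near the share over all genes, median -0.59). The lists hold Pck1, Cps1, Ass1, Hal, Sds and Gls2 on the periportal side and Glul and Cyp2e1 on the pericentral side, so they share members with those above. Oat, an ornithine aminotransferase and 1 of the 4 pericentral markers that rose, was 4.18-fold higher, at 483 to 1475 CPM in vehicle livers (median 833) and 2023 to 5812 CPM at 22 h (median 3485). Rgn, regucalcin, fell 3.25-fold, and Axin2, a Wnt target, 1.55-fold. Hnf4a, the factor that maintains hepatocyte identity, rose 1.68-fold, at 457 to 652 CPM in vehicle livers (median 584) and 875 to 1055 CPM at 22 h (median 987), and Foxa3 1.79-fold. Pparg, which favours fat storage, fell 2.12-fold.

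Of 21 clock genes tested, 5 were higher (23.8%, against 17.6% over all genes) and 7 lower (33.3%, against 19.2%) at 22 h (median log2 fold change 0.01). Nr1d1, a repressor in the core loop, rose 1.55-fold, at 37.9 to 74.7 CPM in vehicle livers (median 46.2) and 64.8 to 101 CPM at 22 h (median 80). Arntl and Dbp were not called (log2 fold changes 0.35 ± 0.25 and 0.21 ± 0.11), although Dbp passed without vehicle replicate 5 (adjusted p = 0.029) or 6 (0.0474).

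Markers of endothelial and stellate cells were lower in treated livers, and those of other cell types in part. In whole liver, fewer cells of a type and less RNA per cell cannot be told apart. All 19 tested endothelial markers were lower (100%, against 19.2% over all genes). Summed, they measured 514 to 952 CPM in vehicle livers (median 785) and 256 to 588 CPM at 22 h (median 483). Of 23 stellate cell and fibroblast markers, 21 were lower (91.3%) and 0 higher. Their sums were 1238 to 2527 CPM in vehicle livers (median 1324) and 398 to 1113 CPM at 22 h (median 789.8). Kupffer cell and macrophage markers were lower in 12 of 19 (63.2%), and T, NK and B cell markers in 9 of 22 (40.9%). Erythroid and platelet markers were lower in 5 of 7 (71.4%) and higher in 1. Summed over 10 markers, of which 7 were tested, they measured 216 to 475 CPM in vehicle livers (median 353) and 126 to 217 CPM at 22 h (median 177). Of 28 interferon-stimulated genes 14 (50%), and of 17 antigen presentation genes 11 (64.7%), were lower. Without vehicle replicate 1 these counts were 13 and 9.

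Individual markers showed the same spread. Pecam1, an endothelial adhesion protein, measured 35.8 to 94.3 CPM in vehicle livers (median 50.5) and 16.5 to 39.5 CPM at 22 h (median 31), and Stab2, a sinusoidal scavenger receptor, 56.8 to 131 CPM in vehicle livers (median 113) and 30.1 to 79.4 CPM at 22 h (median 62.3). Col3a1, a fibrillar collagen of stellate cells, fell 4.34-fold, at 123 to 512 CPM in vehicle livers (median 153) and 13.9 to 99.5 CPM at 22 h (median 44.3), and Col1a1 4.93-fold. Without vehicle replicate 1 these falls were 3.75-fold and 4.12-fold. Adgre1, the F4/80 antigen, measured 24.2 to 111 CPM in vehicle livers (median 37.7) and 5.75 to 38.4 CPM at 22 h (median 25.5), with replicate 5 the highest vehicle liver. Csf1r and C1qa, also of macrophages, fell 2.13-fold and 1.83-fold, while Cd68 was not called (adjusted p = 0.0907, and 0.0481 without 22 h replicate 1). Hba-a2, an alpha globin with a near-identical copy, fell 5.09-fold, at 50.6 to 98.6 CPM in vehicle livers (median 73.9) and 9.04 to 23.2 CPM at 22 h (median 12.7). Spp1, osteopontin, listed as a cholangiocyte marker, fell 2.59-fold. Cd74, the invariant chain, fell 2.36-fold, while B2m was not called (adjusted p = 0.599).

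The stand-apart livers touched these sums. Vehicle replicate 1 had the highest endothelial sum (952 CPM) and stellate sum (2527 CPM) of its group, and 22 h replicates 6 and 7 had the lowest endothelial sums of theirs (265 and 256 CPM). Without those 3 livers, 17 of 19 endothelial, 19 of 23 stellate, 7 of 19 macrophage and 5 of 7 erythroid markers were lower, and 2 of 22 lymphocyte markers. In that fit 1793 of all 11710 genes tested were lower. Without vehicle replicate 1 alone, the lymphocyte counts were 6 lower and 1 higher. Fabp4, a fatty acid carrier of fat cells and vessels, fell 4.32-fold with vehicle replicate 1, at 2001 CPM, and 2.47-fold without it (adjusted p = 1.14e-06). Cidea, a brown fat and fatty liver droplet protein, fell 5.66-fold with it and 3.68-fold without it.

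**Figure D4:**
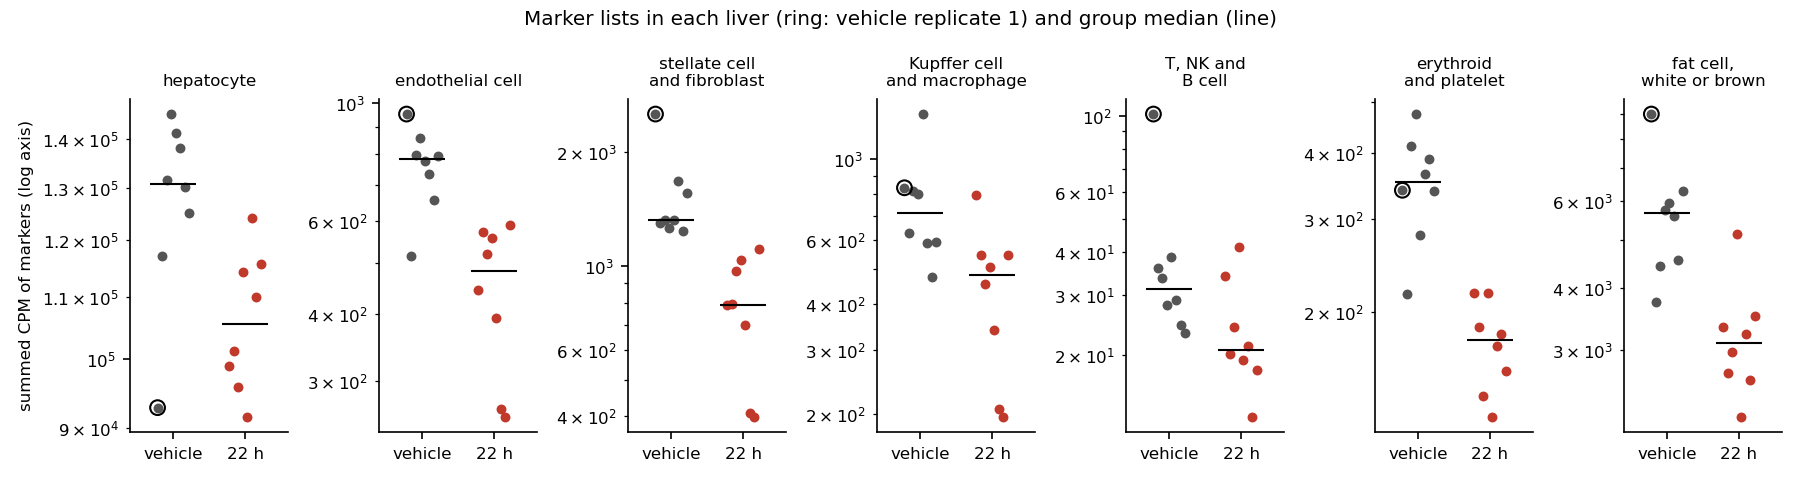
Summed CPM of marker lists in each vehicle and 22 h liver on log axes, with vehicle replicate 1 ringed and a line at each median. Stellate sums lie at 398 to 1113 CPM in treated and 1238 to 2527 CPM in vehicle livers and do not overlap.

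The 22 h livers were then set beside those collected 4 h after the final dose. The 4 h and 22 h groups share the vehicle livers, so only the direct test between them is read as a difference. That test called 3367 genes (29.3%), 1644 higher at 22 h (14.3%) and 1723 lower (15%), while 4 h against vehicle called 5091 genes (44.2%). The 2 treated groups differ in hours since the last dose and, as far as the labels tell, may differ in clock time. Arntl measured 1.85 to 4.7 CPM in vehicle livers (median 2.42), 2.35 to 6.02 CPM at 22 h (median 3.14) and 10 to 20.7 CPM at 4 h (median 12.8), and Dbp was 1.36 higher on the log2 scale at 22 h than at 4 h (adjusted p = 1.53e-09). The part of clock time in the differences below was not tested.

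Among the 24 early CREB targets and feedback genes, 11 were lower at 22 h than at 4 h and 3 higher, against 15% and 14.3% over all genes. Crem measured 107 to 172 CPM at 4 h (median 118) against 20.9 to 30.4 CPM at 22 h (median 27.3), a 22 h minus 4 h difference of -2.20 on the log2 scale (adjusted p = 4.46e-15). Sik1 differed by -2.19, Nr4a1 by -2.44 and Per1 by -1.43, while Egr1 was higher at 22 h by 1.30 (adjusted p = 0.000272). Among phosphodiesterases, Pde10a differed by -3.12 and Pde4d by -1.52, whereas Pde4c was higher at 22 h by 1.0. Ppargc1a, not called against vehicle at 22 h, measured 103 to 235 CPM at 4 h (median 119), and G6pc measured 943 to 1621 CPM at 4 h (median 1436), differences of -2.24 and -1.99. Rgs16 went the other way, measuring 0.22 to 2.81 CPM at 4 h (median 0.822) and 66.6 to 209 CPM at 22 h (median 139), a difference of 7.10 (adjusted p = 1.05e-09).

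Several metabolic genes differed from vehicle at both times. Above it, Pck1 had a log2 fold change over vehicle of 2.39 at 4 h and 1.5 at 22 h, a difference of -0.89 (adjusted p = 0.00126), and Tat 3.42 and 1.92, a difference of -1.49. Fbp1 stood at 1.08 and 1.19, Cps1 at 1.28 and 1.14 and Ass1 at 1.6 and 1.80, with adjusted p-values for the difference of 0.326, 0.537 and 0.245, which do not show that the levels were equal. By the rule of a 22 h to 4 h difference under 0.5 on the log2 scale and the smallest adjusted p, the leading genes also included Gls2, Ugt1a9, Cbs, Gtdc1, Gm5424 and Itih2, above vehicle at both times, and Ces1g, Pdk1 and Hmgcs1, below it at both. Cbs was higher at 22 h than at 4 h by 0.43 (adjusted p = 0.00344) and Pdk1 had a 22 h minus 4 h difference of -0.32 (adjusted p = 0.0023). Itih2, a carrier of hyaluronan, measured 875 to 1506 CPM in vehicle livers (median 1255), 3005 to 4357 CPM at 22 h (median 3853) and 2729 to 4411 CPM at 4 h (median 2938).

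Other genes were farther from vehicle at 22 h than at 4 h. Atf5 measured 437 to 513 CPM at 4 h (median 476) against 492 to 1102 CPM at 22 h (median 815), a difference of 0.76 (adjusted p = 8.63e-06), and Gjc3 differed by 1.17. Scd1 was lower, with a 22 h minus 4 h difference of -1.40 (adjusted p = 0.00386). The same difference was -2.45 for Chrna4, -1.21 for Fdps, -1.0 for Acacb and -1.07 for Hba-a2, and each passed the test.

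A further set was not called against vehicle at 4 h, with an adjusted p over 0.5, which does not show equal levels, and was called at 22 h. Hsd17b7, a cholesterol synthesis enzyme, measured 99.1 to 168 CPM in vehicle livers (median 127), 44.6 to 91.6 CPM at 22 h (median 57.9) and 97.1 to 152 CPM at 4 h (median 123) and differed by -1.04 between the treated groups. Erbb4, a receptor for neuregulins, measured 5.4 to 10.3 CPM in vehicle livers (median 6.69), 1.91 to 4.01 CPM at 22 h (median 2.54) and 4.45 to 8.5 CPM at 4 h (median 6.6), and Crym, which binds thyroid hormone, 1.47 to 2.88 CPM in vehicle livers (median 2.33), 3.91 to 7.02 CPM at 22 h (median 5.3) and 1.76 to 3.09 CPM at 4 h (median 2.17). Tk1, thymidine kinase, was higher at 22 h by 0.83 and Serpinf2, alpha-2-antiplasmin, by 0.62. Other genes by this rule were Cpne1, Tle1 and the gene models Gm26908 and Gm38830, all higher at 22 h by 0.35 to 1.44. For each of these genes the test between 22 h and 4 h passed too. That test uses the same treated livers as the rule that chose the genes, so its result is not separate support.

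**Figure D5:**
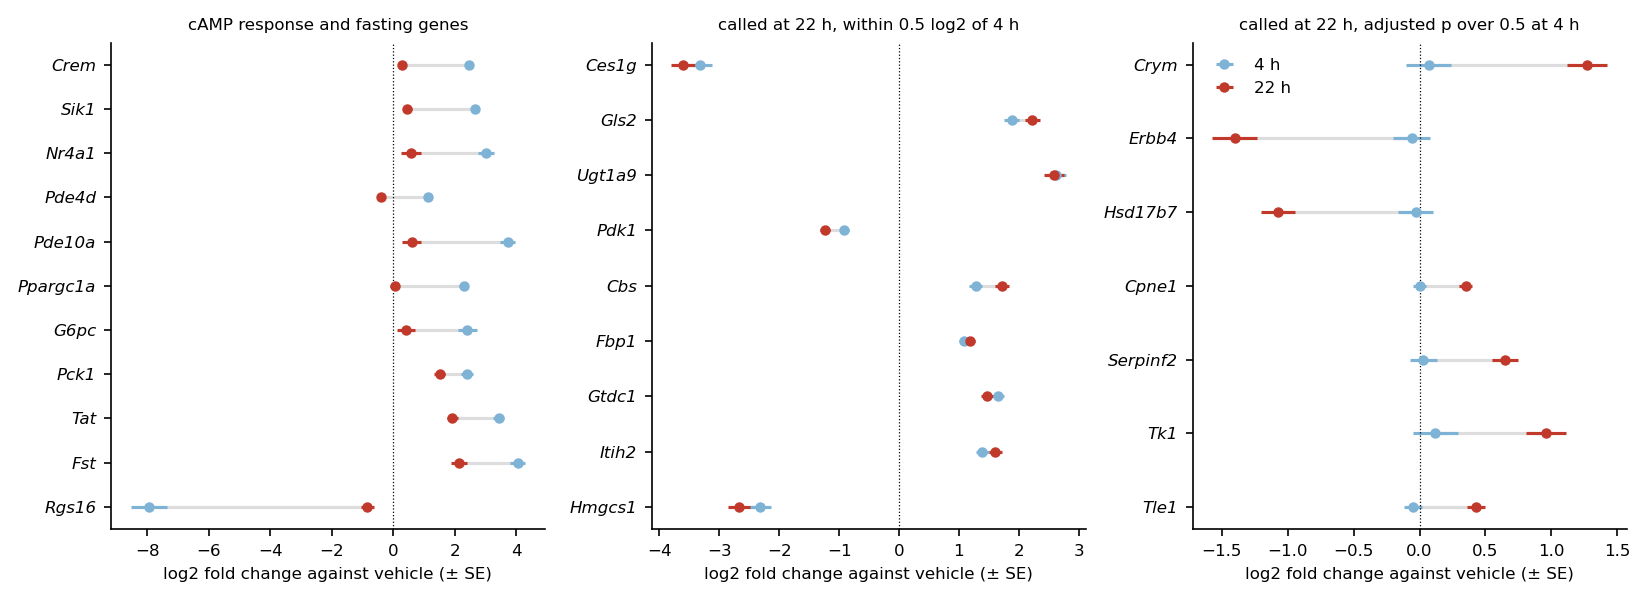
Log2 fold changes against vehicle with SE at 4 h (light blue) and 22 h (red) for 3 sets of genes. At left, Crem, Sik1 and Ppargc1a lie near 0 at 22 h and above it at 4 h, and Pck1, Tat and Fst lie above 0 at both times, the middle set lies close at both times and the right set lies near 0 at 4 h only.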

How the data were processed

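RNA from frozen whole liver was extracted with Qiazol and miRNeasy and sequenced from KAPA mRNA HyperPrep libraries, per the labels' protocols. Reads were processed with cutadapt, GSNAP and GRCm38, per the submitters' processing notes. Versions, counting tool, annotation and use of strand are not given in the sources used here. The deposited values are whole-number counts per gene, 22355 genes in 24 libraries, in text order of Entrez number up to 50932. Genes that would follow in that order, 33.1% of the protein-coding genes of RefSeq, are not analysed here. Most gene lists lack members: of 56 amino acid breakdown genes 40 were in the data, and of 20 genes of NAD and tryptophan use 9.

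Genes with a count of at least 10 (scaled to the median library) in 8 or more libraries, and 15 in all, were kept, 11508 genes with 99.92% of counts. Counts were scaled by the trimmed mean of M-values (TMM, trims 30% and 5%). limma-voom (limma 3.58.1, R 4.3.3, offset 0.5) fitted 3 group means with 21 residual degrees of freedom, adding 4.08 by moderation. Benjamini-Hochberg adjustment was over all tested genes and the threshold 0.05. edgeR's quasi-likelihood test had been planned as the main test and was not run, because the quoted layout of the table could not be checked column by column as counts, and limma-voom took its place. Levels are CPM per scaled library. The statistics were tested on simulated data. Vehicle and treated livers are separate mice per the series' design, 8 per group, and no pair of libraries within a group agreed within counting noise (chi-square per degree of freedom 19.3 to 310 over 56 pairs). Same-numbered livers did not deviate together (correlations -0.253 to 0.092), so they were not paired.

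Named genes were the 15 largest rises and falls at 5 CPM or more, the first 4 members and the 4 called members with the smallest p of each list, Ucp1, and up to 10 genes for each pattern over time, and some of them are not reported here. The genes compared and the lists were chosen with earlier results of these data known. Other scalings, filters, libraries in the fit, weights, a replicate block and leaving out each liver were tried. Promoter windows run from 250 bases before to 50 bases after the start.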

Additional observations from a re-analysis of the deposited data

Results flagged for a closer look

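Among the 170 genes named above, the 8 vehicle livers and the 8 livers at 22 h were each examined for a single liver far from the others (Dixon's criterion on the gap to the nearest liver over the range). This marked 47 of 340 groups (13.8%). The criterion's nominal share of 5% holds for independent normal values. These are CPM of genes measured in the same livers, and some genes were named for these values. The share marked is therefore a description and not a test against chance. Vehicle replicate 1, the liver with Ucp1 RNA, accounts for 26 of the 47 marked groups.

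In that liver the highest CPM of the vehicle group was found for Pnpla3 (142), Cfd (26.6), Tmem45b (123), Gnas (979), Adcy6 (118), Pde4b (52.9), Pde4d (47.7), Nr4a1 (7.15), Pdk4 (503), Fasn (5104), Acaca (667), Acacb (643), Asns (15), Axin2 (23.9), Pparg (97.5), Col1a1 (173), Col3a1 (512), Pecam1 (94.3), Fabp4 (2001) and Cidea (385). Fabp4 at 2001 CPM compares with 41.1 CPM in the next vehicle liver, Gnas at 979 with 365, and Col3a1 at 512 with 229.5. The lowest CPM of the group was found there for Themis (55.4), Gcgr (86.3), Fbp1 (743), Ugp2 (888), Cp (1883) and Hpx (1998). Of these, Cp and Hpx encode plasma proteins secreted by hepatocytes, and Fbp1 and Ugp2 encode liver enzymes.

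The other 21 were spread over several livers. 22 h replicate 1 held the highest CPM of its group for Cib3 (2.42). 22 h replicate 4 held the highest CPM of its group for Ugt1a5 (5.67) and Themis (18.4). 22 h replicate 5 held the highest CPM of its group for Sars (169). 22 h replicate 5 held the lowest CPM of its group for Crem (20.9). 22 h replicate 6 held the highest CPM of its group for Serpina1e (2065), Acat2 (70.6), Apoa1 (3211) and Cyp7b1 (409.5). 22 h replicate 7 held the highest CPM of its group for Fbp1 (2576), Cyp8b1 (331) and Agt (1245). 22 h replicate 8 held the highest CPM of its group for Acmsd (144), Sdc3 (1.92) and Cps1 (4481). 22 h replicate 8 held the lowest CPM of its group for Cpne1 (47.6). Vehicle replicate 2 held the highest CPM of its group for Rpl13a (216). Vehicle replicate 2 held the lowest CPM of its group for Pcx (528). Vehicle replicate 5 held the highest CPM of its group for Trib3 (6.05), Saa1 (627) and Adgre1 (111).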

How the results depend on the processing

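Genes higher and lower at 22 h numbered 2122 and 2146 with median-of-ratios scaling, 2186 and 2086 with upper quartile scaling, 1790 and 1940 with the 16 libraries alone, 2085 and 1912 with no filter and 1948 and 2056 with a stricter filter, against 2023 and 2214. Leaving out 1 liver at a time gave 1857 to 2070 higher and 1989 to 2221 lower. Within animal numbers 1 to 12 (4 livers against 4), 649 were higher and 580 lower, and 642 and 605 without vehicle replicate 1 (chosen after seeing the data). Within numbers 13 to 24, also 4 livers against 4, 1541 were higher and 1699 lower. Of the 170 named genes, 37 lost their call within numbers 1 to 12 and 11 within numbers 13 to 24. The cause of this difference was not tested. Without vehicle replicate 1 and 22 h replicates 6 and 7, also chosen after seeing the data, 1783 were higher and 1793 lower. No call reversed under these alternatives.

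A replicate block gave 2007 higher and 2381 lower. Of 8 same-numbered pairs 0 correlated above 0.1, and 0 vehicle livers correlated best with their own number. With the block, Sdc3 lost its call (adjusted p = 0.0694) and Pde10a (0.0314) and Pdk4 (0.0199) gained one. The DESeq2 alternative and edgeR were not run.

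Without vehicle replicate 1, members called higher went from 5 to 11 of 20 for mitochondrial biogenesis and the tricarboxylic acid cycle. For oxidative phosphorylation they went from 7 to 14 of 29. In other lists few were called: 1 to 2 of 29 for proliferation and 0 to 1 of 28 for interferon-stimulated genes. Counts went from 0 to 1 of 22 for T, NK and B cells, 0 to 2 of 6 for brown fat and 0 to 1 of 10 for fat cells. Over all genes 17.6% were higher with that liver and 17.8% without it. Further lists changed by smaller ratios, such as early CREB targets, from 7 to 10 of 24. The cause was not tested. Of 170 named genes, 150 were called. Without that liver 0 calls were lost and 4 were gained (Gnas, Pde3b, Nr4a1 and Cpt1a). With no filter Crem (adjusted p = 0.0547) and Pklr (0.0609) lost their call, and with 16 libraries Fabp4 (0.0614). Without the 3 livers, Sdc3 (0.0628), H2-Q1 (0.0523), Pde4d (0.143), Crem (0.103) and Xbp1 (0.057) lost it as well. Genes near 1 CPM are limited by depth.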
